A study of Homo sapiens with 4 samples.

Results

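The 10 genes described here lie on the long arm of chromosome 3 (3q) and were taken by name: TP63, SOX2, PIK3CA, PRKCI, DCUN1D1, ECT2, SKIL, TBL1XR1, ACTL6A and MECOM. All 10 were found, each under its own symbol, among the 29655 gene names of the count tables, and 9 of them passed the filter on low values. The libraries were made from UMSCC74B, a long-established line of head and neck squamous cell carcinoma (HNSCC) with the genotype label WT. There were 2 Control libraries from cells given a control shRNA and 2 libraries labelled PRMT5 KD from cells given an shRNA against PRMT5, the arginine methyltransferase. All cells were collected after 72 h, and total RNA was made into directional libraries. The sample labels describe plasmid transfection and the study's methods describe lentiviral particles. Both groups come from 1 cell line, and nothing in the sources says that replicates were separate cultures, so the p-values measure only the spread between these 4 libraries.

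Gain of the 3q segment is among the most frequent copy number changes of squamous carcinomas, and several of its genes have been studied as candidate drivers. They act in separate processes. TP63 and SOX2 encode transcription factors of squamous epithelium, PIK3CA the catalytic subunit of a phosphoinositide 3-kinase, PRKCI an atypical protein kinase C of the cell polarity machinery and DCUN1D1 a factor that helps attach NEDD8 to cullins. ECT2 encodes the exchange factor that activates RhoA at the division plane. SKIL encodes a repressor of SMAD transcription factors, TBL1XR1 an exchange subunit of the NCoR co-repressor complex, ACTL6A an actin-like subunit of chromatin remodelling complexes, and MECOM a zinc finger transcription factor. The study's subject, the RNA-binding protein FXR1, is encoded within the same segment. DNA copy number was not measured in these libraries.

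The libraries held 52185289 to 65964558 counts, and protein-coding genes took 71.5% to 81.4% of them. The share of ribosomal RNA was 14.2% and 15.3% in Control and 18.0% and 26.2% in the libraries labelled PRMT5 KD. At the RNA level the targeted transcript went against the label. The study reports silencing by its PRMT5 shRNA from an immunoblot, which measures protein, and protein was not measured in these libraries. PRMT5 stood at 94.3 and 84.3 CPM (counts scaled to library size, with TMM factors) in Control and at 132 and 150 in the libraries labelled PRMT5 KD (log2 fold change 0.66, SE 0.123, FDR 0.00545). Without Control 2 this call was lost (0.58, FDR 0.0675). The squamous identity given by the labels was not borne out by its defining keratins. KRT5 and KRT14 were listed at 0 in both Control libraries and stayed at or below 1.11 TPM (a level per exon length) in the others. CDH1, which encodes E-cadherin, did not pass 0.198 TPM. Of 10 squamous markers 2 could be tested, PKP1 (0.79, higher) and DSG3 (-0.85, lower), and their summed level was 50.6 and 42.6 TPM in Control against 32.7 and 44.8. The call for DSG3 was lost without Control 1 and that for PKP1 without either Control library.

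Markers of other cell types also differed between the groups. All 6 fibroblast genes listed (COL1A1, COL1A2, COL3A1, DCN, LUM and PDGFRB) stood lower under the PRMT5 KD label, with log2 fold changes of -5.25 to -1.74, and their summed level was 597 and 640 TPM in Control against 79.8 and 93.3. Of these, COL3A1 passed the filter through the Control libraries alone. Of 4 endothelial genes, PECAM1 was the one that could be tested (-5.27, lower), having passed the filter through the Control libraries alone, with sums of 7.18 and 9.30 TPM against 1.42 and 0.864. Of 6 immune genes 3 were tested, of which CD68 was higher (0.63) and CD14 lower (-4.67), while the leukocyte genes PTPRC and CD3E were at or near 0 in every library. The call for CD68 was lost without Control 1 and after a spline correction on gene length and GC (0.45). Immune sums were 351 and 406 TPM in Control and 372 and 444 in the libraries labelled PRMT5 KD. The part of these shifts in the results below was not tested, and in bulk RNA fewer cells of a type and less RNA per cell cannot be told apart.

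**Figure D1:**
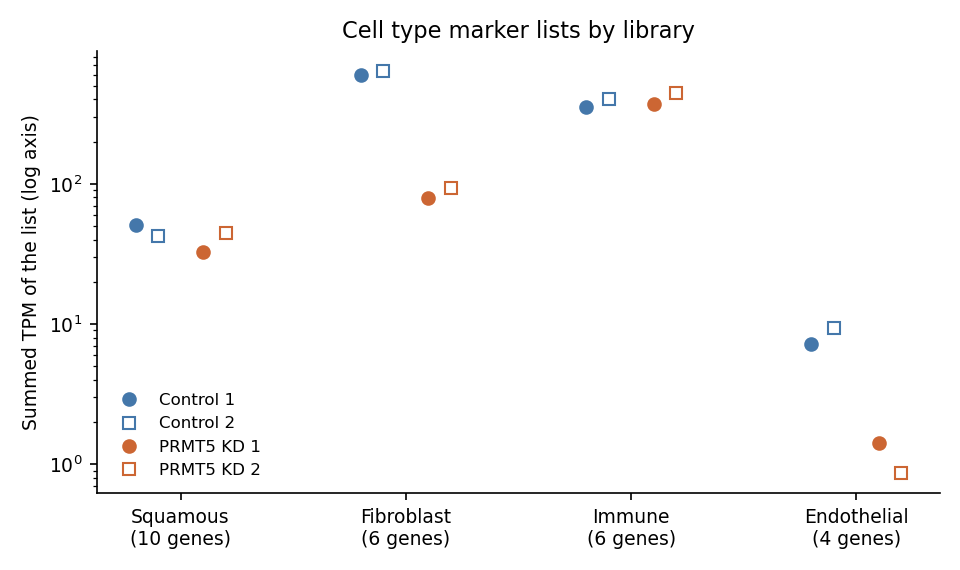
Summed TPM of 4 cell type marker lists (log axis) in each of the 4 libraries, blue for Control and orange for the libraries labelled PRMT5 KD, filled circles for replicate 1 and open squares for replicate 2. The fibroblast sums separate the groups, at 597 and 640 TPM against 79.8 and 93.3, whereas the squamous sums lie between 32.7 and 50.6 TPM and the groups overlap.

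Levels of the 10 genes were first ordered per length, as TPM on union exon length, in the Control libraries. TBL1XR1 was highest at 172 ± 12.6 TPM (SD, n = 2), at percentile 91.0 of the tested genes. It was followed by ECT2 (130 ± 24.1) and SKIL (122 ± 15.7), whose library values overlapped. PRKCI (73.0 ± 2.57), DCUN1D1 (61.2 ± 0.494) and ACTL6A (55.9 ± 3.73) came next, and their ranges did not overlap each other. PIK3CA (24.3 ± 0.430) and MECOM (22.7 ± 1.05) lay close together with ranges that did not overlap. TP63 reached 4.23 ± 0.471 TPM, at percentile 5.55, and SOX2 0.378 ± 0.0682 TPM, at percentile 0.101. The 2 squamous transcription factors were therefore the lowest of the 10 genes.

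The order by mean was different in the libraries labelled PRMT5 KD. ECT2 was highest there at 253 ± 36.5 TPM, and TBL1XR1 fell to sixth place at 70.9 ± 15.4 TPM (percentile 72.8). SKIL (118 ± 27.7) and ACTL6A (99.9 ± 11.0) overlapped in that group, as did DCUN1D1 (76.9 ± 5.05) and TBL1XR1, and MECOM (19.1 ± 3.19) and PIK3CA (18.0 ± 0.816). PRKCI stood at 88.2 ± 3.01 TPM, between the 2 overlapping pairs. TP63 and SOX2 remained last, at 1.70 ± 0.717 and 0.797 ± 0.161 TPM.

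**Figure D2:**
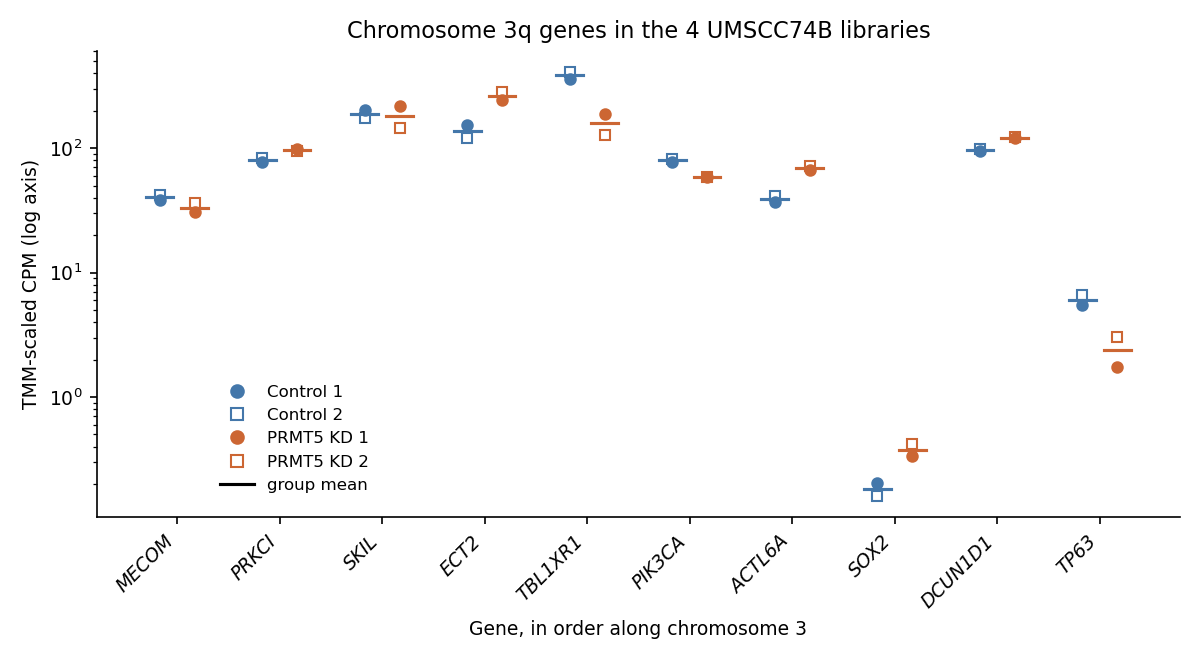
TMM-scaled CPM (log axis) of the 10 chromosome 3q genes in each library, in their order along the chromosome, with short lines at the group means. The groups separate upward for ECT2, ACTL6A, PRKCI, DCUN1D1 and SOX2 and downward for TBL1XR1, TP63, PIK3CA and MECOM, and overlap for SKIL. With so few libraries per group, separation alone is not a test. The share of all tested genes that separate in this way is not given here, so separation does not set these genes apart. SOX2 lies below 0.5 CPM in all libraries.

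The comparison asked whether the 3q genes differed between the 2 groups. A call, by edgeR's quasi-likelihood test over 11896 genes, needed an FDR under 0.05 together with a log2 fold change of 0.5 or more in size. ECT2 and ACTL6A were called higher and TBL1XR1 and TP63 lower. Of these, TP63 passed the filter through the Control libraries alone, where it was higher, and it is included in the counts below. Over all tested genes 21.2% were called higher, 24.3% lower and 45.5% in either direction, so that 4 of 9 members is close to the background. By FDR alone 6 of 9 members passed, against 54.4% of all tested genes, the further 2 being PIK3CA and DCUN1D1, neither of which passed the FDR without Control 1 or without Control 2. TP63 and TBL1XR1 also exceeded a log2 fold change of 1, as did 21.5% of all tested genes. Scaling by total counts alone moved the median log2 fold change of all tested genes from -0.01 to 0.17 and their calls from 2521 higher and 2896 lower to 3509 and 2198, and the 4 member calls were made there too. Changes below are given relative to the TMM scale.

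**Figure D3:**
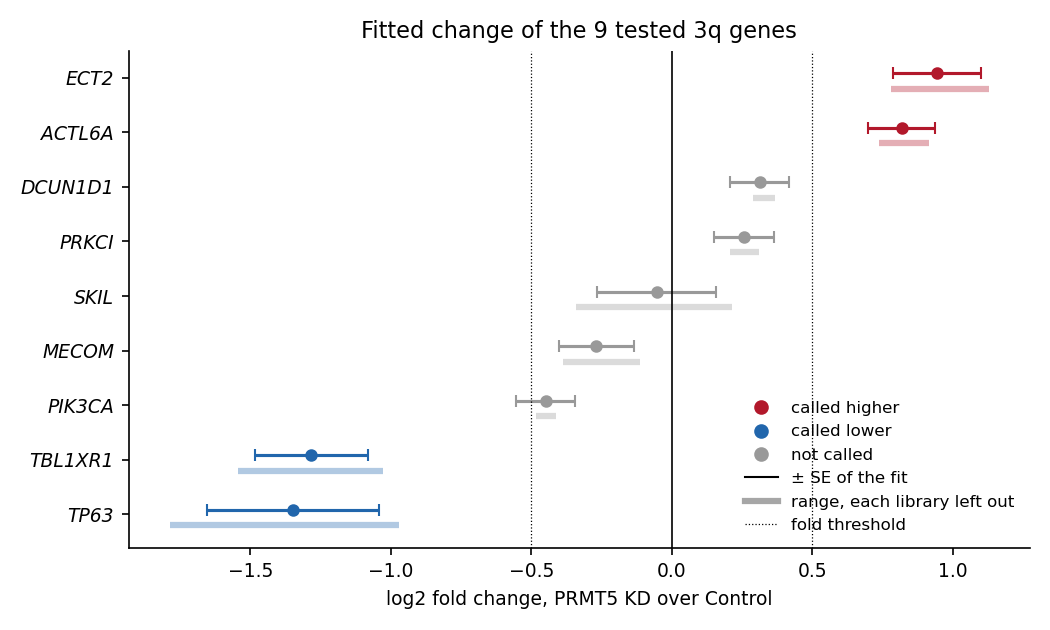
Fitted log2 fold change (PRMT5 KD over Control) of the 9 tested genes, with bars of ± 1 SE and, below each point, the range of the fold change when each library in turn was left out. The ranges of ECT2 (0.78 to 1.13) and ACTL6A (0.74 to 0.92) lie above the fold threshold of 0.5, those of TBL1XR1 and TP63 below -0.5, and that of SKIL spans 0.

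ECT2 encodes a guanine nucleotide exchange factor that turns on RhoA and so sets the contractile ring in place during cytokinesis. The gene lies at chr3:172750682-172821474 on the plus strand (GRCh38). It stood at 153 and 120 CPM in Control and at 245 and 281 in the libraries labelled PRMT5 KD. Both of the latter exceeded both Control values. The group means of 137 ± 23.2 and 263 ± 25.0 CPM (SD, n = 2 each) gave a log2 fold change of 0.94 (SE 0.155, FDR 0.00333), a 1.93-fold higher level. ECT2 was called with each of the 4 libraries left out in turn, at 0.78 to 1.13. Its nearest tested neighbours along the chromosome, NCEH1 (-0.61, FDR 0.00606) and NLGN1 (-1.34, FDR 0.00901), were both lower. NLGN1 passed the filter through the Control libraries alone.

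Most partners of ECT2 in cytokinesis were higher too. Of 14 listed genes, all tested, 10 were called higher and 1 lower, and their median was 1.14 on the log2 scale. Over all tested genes 21.2% were called higher and the median was -0.01. AURKB, the kinase of the chromosomal passenger complex, stood at 22.7 and 15.8 TPM in Control and at 102 and 94.0 in the libraries labelled PRMT5 KD (2.34, SE 0.197, FDR 0.000440). KIF23, the kinesin of the centralspindlin complex that recruits ECT2, stood at 39.3 and 25.6 TPM against 102 and 107 (1.68, SE 0.202, FDR 0.00140). RACGAP1, its centralspindlin partner, which falls outside the rule for named genes and was chosen after its values were seen, gave 1.05 (FDR 0.00706). RHOA itself, the substrate of ECT2, also chosen after its values were seen, was not called (0.12, SE 0.123, FDR 0.457). The 1 gene called lower was MYH9, the heavy chain of non-muscle myosin, at 851 and 978 TPM against 605 and 403 (-0.86, FDR 0.0273). That call was lost without either Control library and after a spline correction on gene length and GC (-0.37, FDR 0.250). The list held 7 calls without PRMT5 KD 2 and 8 to 10 with another library left out.

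Late cell cycle genes often carry a CHR element (searched as TTTGAA) and a CCAAT box (searched as CCAAT) in their promoters, so both motifs were searched on both strands in the 250 bases before each RefSeq start site (GRCh38.p14). Promoter windows were at hand for 9 of the 10 members. ECT2 was the one member window with both motifs within 30 bases. Among the cytokinesis partners, 4 of 13 genes with a window had such a pair, against 1.20% of all windows and 0.762% of the windows of tested genes. A gene can have several windows, so the share of genes and the shares of windows are unlike units. All 4 were called higher, as were ECT2 and 10 of the 14 listed partners in all. Whether the pair bears on the calls was not tested. The stretches of ECT2, CEP55 and CIT are shown because they lie outside annotated exons, unlike those of INCENP and KIF23, and capitals mark the motifs.
ECT2: ttaTTTGAAacacacgcacaaCCAATcaag
CEP55: cgcccTTCAAAggcggcagCCAATcgggga
CIT: gcgtaaccgCCAATTTCAAActtccaagac
The ECT2 stretch is chr3:172750608-172750637 on the plus strand, 118 to 89 bases before the start site, with 12 bases between the motifs. The CEP55 stretch is chr10:93496491-93496520 on the plus strand, 121 to 92 bases before the start site, with the CHR on the opposite strand and 8 bases between the motifs. The CIT stretch is chr12:119877513-119877542 on the minus strand, 222 to 193 bases before the start site, where the motifs adjoin and the CHR is again on the opposite strand. CEP55, an abscission factor, gave a log2 fold change of 1.52 (FDR 0.00115) and CIT, a kinase of the midbody, 0.77 (FDR 0.00921). These are matches of letters and carry no measurement of binding. By itself the CHR letters occurred in 13.3% of all windows and the CCAAT letters in 32.0%.

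ACTL6A encodes BAF53A, a subunit shared by the BAF and PBAF remodellers and by the INO80 and TIP60 complexes. The gene lies at chr3:179562886-179588407 on the plus strand. It stood at 36.95 and 41.5 CPM in Control and at 66.3 and 72.2 in the libraries labelled PRMT5 KD, with no overlap. The means of 39.2 ± 3.24 and 69.2 ± 4.19 CPM gave a log2 fold change of 0.82 (SE 0.120, FDR 0.00219), a 1.76-fold higher level. The call was made in all 4 fits with a library left out, at 0.74 to 0.92. Exons of ACTL6A overlap those of MRPL47 on the opposite strand by 123 bases, or 3.35% of its exon length, and MRPL47 was not called (0.09, FDR 0.592). ACTL6B, the neuronal paralogue, was listed at 0 in all 4 libraries.

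Among the other subunits of BAF and PBAF, 7 of 22 tested genes were called higher and 1 lower, and the median was 0.35. The share called higher, 31.8%, lay above the 21.2% of all tested genes and the share called lower, 4.55%, below 24.3%. BCL7A, an accessory subunit of BAF, stood at 3.77 and 5.10 TPM in Control and at 17.4 and 20.9 in the libraries labelled PRMT5 KD (2.09, SE 0.196, FDR 0.000535). BCL7B, its close relative, gave 0.97 (SE 0.124, FDR 0.00137), and SMARCD3, the BAF60C subunit, stood at 10.1 and 13.1 TPM against 5.06 and 4.82 (-1.25, FDR 0.00333). The list held 4 calls without Control 1, 3 without Control 2 and 13 when libraries were scaled by total counts alone. Of 23 genes of the INO80 and TIP60 complexes, all tested, 6 were called higher and 1 lower, with a median of 0.18. The 30.4% called lie below the 45.5% of all tested genes, with 26.1% higher against 21.2% and 4.35% lower against 24.3%. YEATS4 (0.79) and ING3 (0.74), chromatin readers of the TIP60 complex, were higher and the scaffold TRRAP was lower (-0.59). After the length and GC correction YEATS4 (0.39) and TRRAP (-0.14) were no longer called, each of these 3 calls was lost without 1 of the Control libraries, and the list held 1 call without Control 2. TRRAP was also not called with total counts alone (-0.41).

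TP63 encodes p63, the master regulator of basal and squamous epithelium. The gene lies at chr3:189631389-189897276 on the plus strand. Its counts were 218 and 330 in Control and 83 and 144 in the libraries labelled PRMT5 KD, which corresponds to 5.51 and 6.60 CPM against 1.75 and 3.01. The groups did not overlap, and the means of 6.05 ± 0.770 and 2.38 ± 0.897 CPM gave a log2 fold change of -1.35 (SE 0.306, FDR 0.0111), a 2.55-fold lower level. TP63 passed the filter through the Control libraries alone, at 0.695 and 0.822 RPKM against 0.242 and 0.438, under the minimum of 0.5. The call was lost without Control 1 (FDR 0.0570) and without Control 2 (FDR 0.102). Gene counts do not tell the TAp63 and ΔNp63 isoforms apart.

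The relative TP73 stayed below 0.333 TPM and was not tested. Of 24 known p63 targets of basal and squamous epithelium, 14 were tested, 7 were called lower and 2 higher, and their median was -0.71. Over all tested genes 24.3% were called lower. ITGB4, called lower, and HAS3, called higher, each passed the filter through 1 group alone. ITGA3, an integrin subunit that binds laminin, stood at 1098 and 1321 TPM against 318 and 356 (-1.86, SE 0.166, FDR 0.000491). DST, which encodes dystonin, stood at 311 and 277 TPM against 122 and 127 (-1.25, SE 0.146, FDR 0.00102). Gene counts do not tell the hemidesmosome form of dystonin from its other forms. The list held 5 calls without Control 1 or without Control 2. The keratins of this list were at or near 0, as given above.

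SOX2 encodes a transcription factor of stem cells and squamous progenitors, at chr3:181711925-181714436 on the plus strand. Its counts were 8 and 8 in Control and 16 and 20 in the libraries labelled PRMT5 KD. Exact 95% Poisson intervals, which cover counting error only, ran from 3.45 to 15.8 for each Control library and from 9.15 to 26.0 and 12.2 to 30.9 for the others, so that they overlapped. These counts correspond to 0.202 and 0.160 CPM against 0.336 and 0.418. SOX2 did not pass the filter and was not tested. Without a filter its log2 fold change was 1.11 (SE 0.579, FDR 0.155) and with the edgeR filter by counts 1.12 (SE 0.484, FDR 0.0895), neither of which passed.

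SOX2 made up less than 1% of the summed TPM of the 20 SOX genes looked at, 0.362% and 0.251% in Control and 0.751% and 0.955% in the libraries labelled PRMT5 KD. Of the 19 others 6 were tested, 3 called higher and 2 lower, beside 21.2% and 24.3% of all tested genes, and 1 of the 3, SOX5, passed the filter through the libraries labelled PRMT5 KD alone. SOX12 (65.5 and 71.1 TPM against 37.5 and 38.3) and SOX4 (23.6 and 27.9 TPM against 9.88 and 6.70) were lower, at -0.86 (FDR 0.00161) and -1.64 (FDR 0.00263). SOX7 (0.59) and SOX13 (0.57) were higher, and both calls were lost without either Control library. SOX7 was also not called after the length and GC correction (0.48), nor SOX13 without PRMT5 KD 2 (0.46). The long non-coding RNA SOX2-OT, within whose locus SOX2 lies, had 7 to 14 counts per library.

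TBL1XR1 encodes TBLR1, which recruits ubiquitin ligases to exchange NCoR co-repressors for activators. The gene lies at chr3:177019340-177228000 on the minus strand. It stood at 361 and 409 CPM in Control and at 188 and 128 in those labelled PRMT5 KD, a wide gap apart. The means of 385 ± 34.4 and 158 ± 42.0 CPM gave a log2 fold change of -1.28 (SE 0.201, FDR 0.00299), a 2.44-fold lower level. The call was made with each library left out in turn, at -1.55 to -1.03. TBL1XR1 and its paralogue TBL1X fell together. TBL1X stood at 27.4 and 23.2 TPM against 9.62 and 6.68 (-1.64, SE 0.224, FDR 0.00232), and TBL1XR1 kept 85.6% to 90.0% of their summed TPM across the 4 libraries.

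Apart from CORO2A, the other NCoR complex subunits moved less. Of 6 genes tested, TBL1X included, 3 were called lower and 0 higher by edgeR, against 24.3% lower over all tested genes, and the median was -0.43. DESeq2 called 0 higher as well, and at an unadjusted p under 0.05 1 gene, HDAC3, was higher. NCOR1 (-0.32, FDR 0.0477) passed the FDR but not the fold threshold. CORO2A, which encodes a coronin of the complex, gave -1.14 (FDR 0.0232) at a low level of 4.26 and 6.06 TPM in Control, and passed the filter through the Control libraries alone. HDAC3, the deacetylase of the complex, gave 0.30 (FDR 0.0519) and GPS2 -0.24 (FDR 0.226), and neither was called. The list held 1 call without Control 1 or without Control 2, and 2 after the length and GC correction.

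PIK3CA encodes p110α, at chr3:179148114-179240093 on the plus strand. It stood at 78.0 and 81.8 CPM in Control and at 58.7 and 58.4 in the libraries labelled PRMT5 KD. The groups did not overlap, and the log2 fold change of -0.45 (SE 0.104, FDR 0.0120) passed the FDR but not the fold threshold. After the length and GC correction it was -0.14 (FDR 0.278). PIK3CA has 17189 exon bases, of which 19.8% are shared with KCNMB3 on the opposite strand, and reads of the pair cannot be told apart unless counting used the strand. KCNMB3 was lower (-0.93, FDR 0.0139) at 5.64 to 6.09 CPM in Control, far below PIK3CA. PIK3CA took 22.7% to 24.7% of the summed TPM of the 4 catalytic subunit genes of its class.

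In the PI3K and AKT pathway, 23 of 24 listed genes were tested, 3 were called higher and 6 lower, and the median was -0.09. The 39.1% called lie below the 45.5% of all tested genes, with 13.0% higher against 21.2% and 26.1% lower against 24.3%. AKT1, a kinase activated by PI3K products, stood at 116 and 118 CPM against 194 and 195 (0.74, SE 0.105, FDR 0.00196), and RHEB, the GTPase that activates mTORC1, gave 0.69 (SE 0.108, FDR 0.00280). INPP4B, a lipid phosphatase of the pathway, was lower (-1.06, FDR 0.00527), with an FDR of 0.0506 without Control 1. The list held 5 calls without Control 2.

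PRKCI encodes the atypical protein kinase C iota, at chr3:170222424-170305977 on the plus strand. It stood at 77.8 and 83.6 CPM in Control and at 97.5 and 95.4 in the libraries labelled PRMT5 KD. The groups did not overlap, yet the log2 fold change of 0.26 (SE 0.107, FDR 0.0825) did not pass. PRKCI made up over 99% of the summed TPM of PRKCI and its paralogue PRKCZ in every library, from 99.1% to 99.9%. In the Par polarity complex and its partners, 11 of 14 genes were tested, 0 were called higher by edgeR or DESeq2 and 3 were called lower by edgeR, that is 27.3% against a background of 24.3%. Of the 3, 1 passed the filter through the Control libraries alone. At an unadjusted p under 0.05, 2 genes were higher, the small GTPases CDC42 and RAC1. PATJ, listed under its older symbol INADL, stood at 11.7 and 11.3 TPM against 4.78 and 6.01 (-1.11, FDR 0.00137) and PARD3B at 17.0 and 15.5 TPM against 8.27 and 7.82 (-1.03, FDR 0.00147). Both encode scaffolds of cell junctions. PRKCI's nearest tested neighbours were PHC3, which was lower (-0.88), and SKIL.

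DCUN1D1 encodes a co-ligase that stimulates cullin neddylation, at chr3:182938074-182985953 on the minus strand. It stood at 95.6 and 98.9 CPM in Control and at 119.5 and 122 in the libraries labelled PRMT5 KD. The groups did not overlap, and the log2 fold change of 0.31 (SE 0.104, FDR 0.0417) passed the FDR but not the fold threshold. DCUN1D1 took 35.9% and 36.5% of the summed TPM of the 5 DCUN1D genes in Control and 42.4% and 41.9% in the others, and the 4 relatives gave log2 fold changes of -0.44 to 0.27 that did not pass. Of 19 genes of cullin neddylation, all tested, 4 were called higher and 0 lower by edgeR. The share of 21.1% higher is close to the background, whereas 0 lower compares with 24.3%, DESeq2 called 0 lower as well, and at an unadjusted p under 0.05 1 gene, DCUN1D2, was lower. RBX1, the RING subunit of cullin ligases, stood at 33.4 and 34.6 TPM against 60.1 and 60.0 (0.81, SE 0.123, FDR 0.00247), and NAE1, a subunit of the NEDD8-activating enzyme, at 38.7 and 39.8 TPM against 62.2 and 76.7 (0.80, SE 0.122, FDR 0.00244). The list held 2 calls without Control 2.

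SKIL encodes SnoN, a repressor of SMAD-driven transcription, at chr3:170357342-170396835 on the plus strand. It stood at 204 and 174 CPM in Control and at 218 and 145 in the libraries labelled PRMT5 KD. The Control values lay inside the range of the others, and the log2 fold change of -0.05 (SE 0.211, FDR 0.846) had no stable sign, from -0.34 without PRMT5 KD 1 to 0.22 without PRMT5 KD 2. Around it, 11 of 12 genes of SMAD signalling were tested, 2 called higher and 3 lower, with a median of 0.02. The share called was close to the 45.5% of all tested genes, with 18.2% higher against 21.2% and 27.3% lower against 24.3%. The receptor TGFBR1 stood at 90.5 and 114 TPM against 44.1 and 26.3 (-1.54, FDR 0.0118) and TGFBR2 at 305 and 382 TPM against 191 and 221 (-0.76, FDR 0.00824). The ubiquitin ligase SMURF2 was higher (0.61, FDR 0.00630). The calls for TGFBR1, TGFBR2 and SMURF2 were all lost without Control 2, where the list held 1 call, and that for SMURF2 also without Control 1. The relative SKI was not called (0.11, FDR 0.584).

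MECOM encodes EVI1 and longer forms with a PR domain, which gene counts do not tell apart, at chr3:169083499-169663775 on the minus strand. It stood at 38.4 and 41.9 CPM in Control and at 30.5 and 36.1 in the libraries labelled PRMT5 KD. The groups did not overlap, and the log2 fold change of -0.27 (SE 0.133, FDR 0.131) did not pass. PRDM16, its paralogue, reached at most 0.0439 TPM. Of 9 relatives and co-repressors 8 were tested, 3 called higher and 1 lower, a share close to the 45.5% of all tested genes. GATA2, a known EVI1 target and haematopoietic factor, stood at 13.1 and 13.8 TPM against 37.5 and 56.6 (1.79, SE 0.189, FDR 0.000772). SUV39H1, a histone methyltransferase that binds EVI1, stood at 22.3 and 18.7 TPM against 52.2 and 68.1 (1.54, SE 0.160, FDR 0.000717). The co-repressor CTBP1 was lower (-0.52, FDR 0.00957), a call lost without Control 1, Control 2 or PRMT5 KD 1 and after the length and GC correction (-0.14). It was also lost with total counts alone (-0.34), without a filter (-0.47), with the edgeR filter by counts (-0.46) and with all gene names fitted (-0.48). The list held 2 calls without Control 1.

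**Figure D4:**
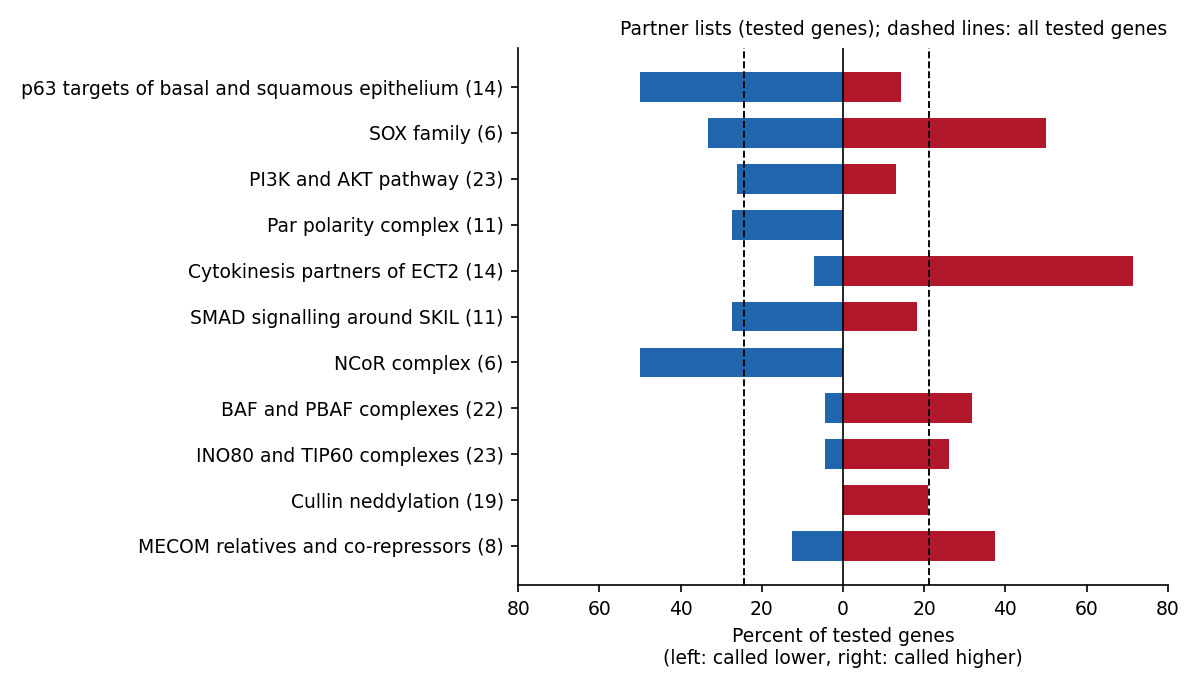
Percent of the tested genes of each partner list (those with 6 or more tested genes) that were called higher (red, to the right) and lower (blue, to the left), with the number tested in parentheses and dashed lines at the 21.2% and 24.3% of all tested genes. The cytokinesis list extends farthest to the right, with 10 of 14 genes, and the p63 target and NCoR lists farthest to the left, with 7 of 14 and 3 of 6.

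The 12 partner lists together held 69 called genes of 158 tested, 43.7% against 45.5% of all tested genes. The count was 35 without Control 2 and 28 at a log2 fold change of at least 1. They were written from general knowledge of the members' complexes and pathways, and no set test was run on them.

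The 10 genes span 20.8 Mb, chr3:169083499-189897276, and the genes between them did not move as a block. Of the 100 other protein-coding genes annotated there and listed in the tables, 66 were tested, 11 called higher and 13 lower, of which 1 and 2 passed the filter through a single group. That is 36.4%, against 43.7% of 604 tested genes on the remainder of chromosome 3 and 45.7% of 11217 on other chromosomes, and the median log2 fold change was 0.03 against -0.01 for all tested genes. The count was 16 without Control 1 and 11 without Control 2, and scaling by total counts alone gave 14 higher and 10 lower. The median Control level of these 66 genes was 55.8 TPM, against 42.0 on the remainder of chromosome 3 and 32.0 elsewhere.

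Both directions were seen along the segment. The largest increases among well-expressed genes were in RTP4, an interferon-induced gene (17.5 and 6.66 CPM against 39.2 and 57.1, 2.01, FDR 0.0289), and RFC4, a subunit of the clamp loader of DNA replication (12.3 and 12.8 CPM against 39.0 and 41.9, 1.69, FDR 0.000327). The call for RTP4 was lost without PRMT5 KD 1, without PRMT5 KD 2, without a filter and after the length and GC correction. DGKG (1.48), EIF5A2 (1.17) and ECE2 (0.85) followed, the last a call lost without either Control library. The largest decreases were in LPP, which encodes a focal adhesion protein (476 and 526 CPM against 136 and 103, -2.06, FDR 0.000420), and ZMAT3, which encodes an RNA-binding zinc finger protein (119 and 148 CPM against 41.8 and 40.0, -1.71, FDR 0.000420). KLHL24 (-1.09, lost without Control 2), VPS8 (-1.05) and PHC3 (-0.88) followed.

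Neighbouring genes moved both with and against the member beside them. LPP, the nearest tested neighbour of TP63 within the segment with 1478 kb between starts, was lower as TP63 was. ZMAT3 and KCNMB3 on either side of PIK3CA were both lower, of which KCNMB3 passed the filter through the Control libraries alone. KCNMB3 shares 3403 of its 8964 exon bases with the more abundant PIK3CA. Reads there cannot be told apart unless counting used the strand, so its change may not be separate from that of PIK3CA. GNB4, next to ACTL6A with 111 kb between starts, was higher (0.79, FDR 0.00389), as ACTL6A was. MRPL47, on the other side of ACTL6A and nearer at 41.8 kb, was not called (0.09, FDR 0.592). Both neighbours of ECT2 were lower as given above. ATP11B, a neighbour of DCUN1D1, was lower (-0.83, FDR 0.00264), while DCUN1D1 was not called. FXR1 stood at 189 and 187 CPM in Control and at 231 and 223 in the libraries labelled PRMT5 KD, and its log2 fold change of 0.27 (SE 0.108, FDR 0.0723) did not pass. It passed the FDR, but not the fold threshold, under some alternatives, among them the length and GC correction (0.47, FDR 0.0119). TERC, the RNA template of telomerase and a non-coding gene of the same segment, was outside the fit and stood at 49.1 and 49.5 CPM in Control against 30.8 and 31.2.

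**Figure D5:**
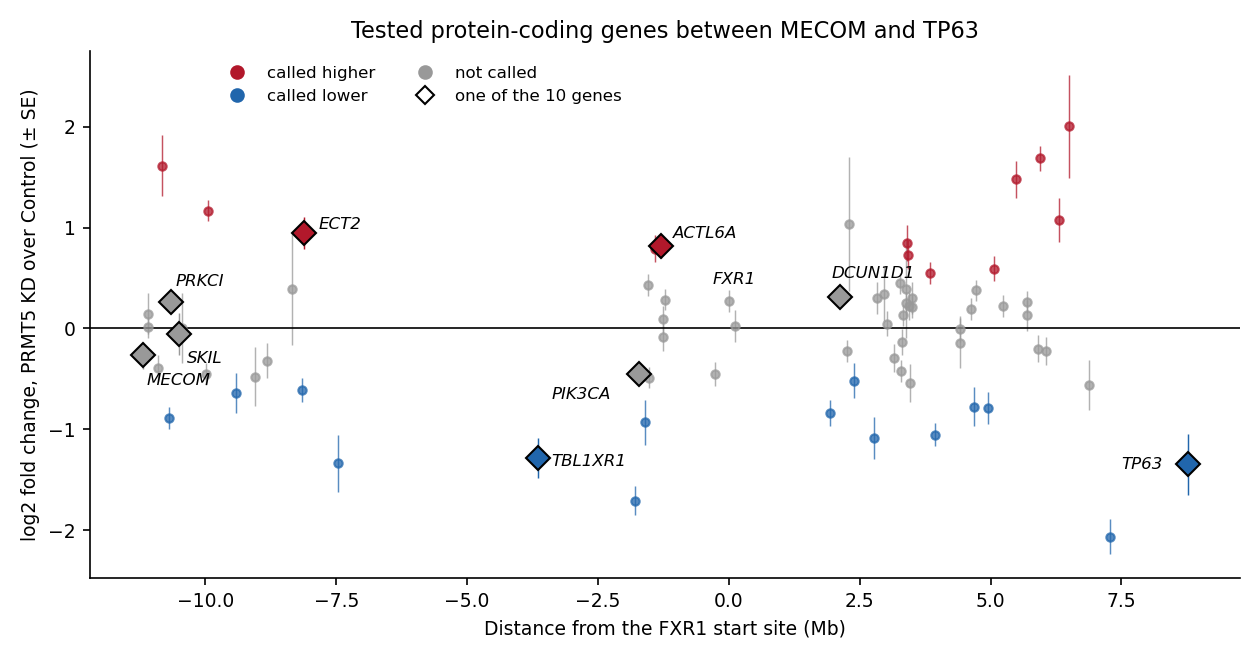
Log2 fold change (PRMT5 KD over Control, ± SE) of the tested protein-coding genes between MECOM and TP63, against the distance of each gene from the FXR1 start in Mb, with diamonds for the 9 tested genes among the 10 and circles for the others. Red and blue points are interspersed along the segment, with 11 circles called higher and 13 called lower.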

How the data were processed

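RNA-seq of 4 UMSCC74B libraries (2 Control, 2 labelled PRMT5 KD) was analysed. The tables, as deposited, hold estimated counts with decimals for each gene, without normalization. The submitters' processing notes name FastQC, Trim Galore, STAR, Salmon, DESeq2 and GRCh38, whereas the study's methods name FeatureCounts. Whether counting used strand is not given in the sources used here.

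Counts were summed per name and rounded, and 28 date-like names (0.150% to 0.161% of counts) were left out. Names were matched to GENCODE release 44, and 18917 of them were protein coding. Those reaching 0.5 RPKM on union exon length in every library of 1 group were fitted with edgeR 4.0.16 (TMM, robust quasi-likelihood, no replicate term, R 4.3.3), with Benjamini-Hochberg adjustment (FDR) over all 11896 genes. Intervals and SE were computed per gene, and the fit was tested on simulated data.

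Genes named are the 10 members, PRMT5, FXR1, and the called genes with the 2 largest changes each way in a list (5 in the segment) at an average log2 CPM of at least 3, with lists of up to 6 genes whole. Some genes of these lists are not reported here, though they count among the list totals. Neighbours were taken by position, and CEP55, CIT, KCNMB3, GNB4, TERC, SOX2-OT, RACGAP1, RHOA, CDC42, RAC1, DCUN1D2, SOX5, ITGB4, HAS3, INCENP and SMARCD3 were added after values were seen. Members and lists were chosen with earlier results of these data known. Alternatives covered DESeq2 1.42.0, scaling, filters, dispersion, a replicate block, length and GC splines and each library left out. Depth was 52185289 to 65964558 counts, so TP63 and SOX2, at 8 to 330 counts, are least precise.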

Additional observations from a re-analysis of the deposited data

How the results depend on the processing

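The 4 member calls (ECT2 and ACTL6A higher, TBL1XR1 and TP63 lower) were made in all 11 other fits at the fold threshold of 0.5 and were 3 to 4 with a library left out, TP63 being lost without either Control library. At a log2 fold change of at least 1 there were 2 member calls, 11 in the segment and 28 in the partner lists. With a library left out the segment held 11 to 28 calls, the partner lists 35 to 72, and PRMT5 gave a log2 fold change of 0.57 to 0.78, not passing without Control 2 (0.58). A group left with 1 library was assumed to vary like the other. All genes gave 1354 calls higher and 1763 lower without Control 2, and the cause was not tested.

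SKIL turned to 0.12 with total counts alone and to 0.0078 with the edgeR filter by counts, ranged from -0.34 to 0.22 with a library left out, and was not called in any fit. The p63 target list held 14 calls without a filter and 15 with the edgeR filter by counts, against 9.

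The replicate numbers were not taken as a pairing, since libraries of the same number had a correlation of -0.10 in their deviations. The replicate block gave 4 member calls, 22 in the segment, 68 in the lists, a PRMT5 log2 fold change of 0.66, and 2402 higher and 2780 lower over all genes. The crossed pairing, added after seeing the data, gave 2544 and 2939. DCUN1D1 no longer passed the FDR with the block (FDR 0.0727).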

Other observations

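Some non-coding RNAs of the 3q segment also differed in level between the groups. LOC102724550 stood at 30.7 and 30.1 CPM in Control and at 6.64 and 4.14 in the libraries labelled PRMT5 KD, and FLJ42393 at 8.34 and 5.36 CPM against 1.96 and 3.22. SNORA63, a small nucleolar RNA, stood at 15.0 and 25.5 CPM against 9.90 and 10.4. LOC344887 overlapped between the groups, at 82.3 and 57.3 CPM against 43.1 and 60.5. These RNAs were outside the fit over protein-coding genes and no test was made of them. They were chosen after their values were seen.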
